A study of Mus musculus with 18 samples.

Results

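The canonical histone and linker histone genes were examined in RNA of Type D small cell lung cancer (SCLC) cells before and after p53 restoration. Members were the rows of the expression table whose symbol is H1f, H2ac, H2bc, H3c or H4c followed by a number, or is H2aj, H2ax, H2az1 or H2az2. The rule used symbols alone and no measured value. It found 64 of the 25239 genes in the table, 10 for H1, 18 for H2A, 14 for H2B, 12 for H3 and 10 for H4, and 46 of them lie on chromosome 13. With at least 1 TPM (the share of transcripts a gene holds, corrected for its length and scaled to the same sum in each sample) in at least 3 of the 18 samples, 50 members were kept for testing, as were 12828 genes in all. Of the 14 others, 5 were at 0 in every sample (H2ac1, H2bc1, H2ac18, H3c14 and H3c15) and 9 were too low. Of the 50 tested, 16 reached 1 TPM in at least 3 Control samples but not in 3 Restored samples, so they were kept through their Control samples alone. The opposite held for 0, and 2 (H2bc15 and H3c2) needed samples of both states.

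The samples came from 3 mouse cell lines, 4711-1, 4711-18 and 4716-11, each made from an SCLC tumor of a mouse homozygous for Trp53 XTR (XTR/XTR), for floxed Rbl2 and Rb1 (flox/flox each), with Rosa26 FlpO-ERT2. Adenoviral Cre under the CMV promoter had deleted Rb1 and Rbl2 and trapped Trp53 in the lung, so Rb1 and Rbl2 are lost in every group, controls included. Each line carried LentiCRISPRv2 with 1 of 3 sgRNAs: sgBgal, the control against β-Gal, sgPpia#3.2 against exon 3 of Ppia, or sgPpia#4.1 against exon 4. Ppia encodes the prolyl isomerase cyclophilin A. Each was given vehicle (Control, p53 trapped) or 4-OHT (Restored, p53 expressed) for 72 h, which makes 6 groups of 3 samples with the cell line as the replicate. Values below follow the order 4711-1, 4711-18 and 4716-11. Whether 4711-1 and 4711-18 came from the same mouse is not given in the sources used here.

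Trp53 was at 5.45 to 8.41 TPM in Control and 181 to 236 TPM in Restored samples. Ppia was at 1551 to 2849 TPM with sgBgal, 658 to 1233 with sgPpia#3.2 and 1191 to 1952 with sgPpia#4.1, so Ppia mRNA was still present with both Ppia sgRNAs. Of the neuroendocrine markers, Ncam1 (6.9 to 29.7 TPM), Syp (3.0 to 7.1) and Uchl1 (1.2 to 2.8) were detected, whereas Calca, Chga and Neurod1 stayed at or below 0.156 TPM and Insm1 at or below 3.37. The leukocyte list summed to 2.18 to 7.13 TPM in Control and 21.4 to 39.8 TPM in Restored samples. Nearly all of it was Cd68, while the defining markers Ptprc and Cd3e stayed at or below 0.159 TPM. Fibroblast, endothelial and germ cell marker sums stayed at or below 1.22, 1.44 and 1.83 TPM. The sgPpia#3.2 Control sample of 4711-18 stood apart from the other Controls. Its Cdkn1a was at 369 TPM (99 to 171 in the others) and its summed S phase genes at 1959 TPM (3201 to 4887 in the others). Their part in the histone values was not tested. Counts of members called with sgPpia#3.2 are also given without it, as are the log2 fold changes of described members whose call changed or whose value moved by over 1.5 times. For genes outside the members, values without it are not given.

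Histones package DNA: H2A, H2B, H3 and H4 form the nucleosome core, and H1 linker histones bind the DNA between cores. Canonical (replication-dependent) histone genes lie in clusters, are transcribed mainly in S phase, and give mRNAs that end in a stem-loop in place of a poly(A) tail. Replacement variants such as H2A.Z (H2az1 and H2az2), H2A.J (H2aj), H1.0 (H1f0) and H1.10 (H1f10) are made outside S phase too, from polyadenylated mRNA, and H2ax makes both kinds of mRNA. NEBNext Ultra II libraries can be made after poly(A) selection or after rRNA depletion. Which was used is not given in the sources used here, and it sets how much of the stem-loop mRNA a library can hold. In RNA of whole cultures, fewer cells with a histone mRNA and less of it per cell cannot be told apart.

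The stem-loop was searched for in the GENCODE M21 transcripts (GRCm38) of all 64 members, since it separates the canonical from the variant mRNAs. It was found in 39 (60.9%), against 0.452% of the 21901 protein-coding genes, and among the 6 replacement variants it was found in H2ax alone. The 25 without a match include canonical members with short annotated transcripts, such as H4c12 (312 bases) and H2ac10 (399 bases). An annotated transcript that ends before the loop cannot show it, so no match does not mean that the mRNA lacks a loop. The forms in members described below are given 5′ to 3′, with the stem arms in capitals and the loop in lower case.
H1f2: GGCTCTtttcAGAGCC
H2ac8: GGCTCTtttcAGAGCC
H3c8: GGCTCTtcttAGAGCC
H4c2: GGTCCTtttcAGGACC
H4c9: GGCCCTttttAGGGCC
H2ax: GGCCCTtttaAGGGCC
The form printed for H1f2 and H2ac8 was shared by 21 members. In 21 of the 39 an annotated transcript ran on for at least 100 bases past the loop, among them H1f2 (840 bases), H4c9 (330) and H2ax (822).

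Canonical genes often stand head to head, an H2A gene and an H2B gene that share the DNA between their starts. Among the 58 members with a promoter window there were 7 such pairs with starts under 500 bases apart, all on chromosome 13. H2bc4 and H2bc21 were among the members without a window, so pairs that include them could not be found. The stretches of H2ac8 with H2bc8 and of H2ac12 with H2bc12 are printed because the results below differ within these pairs. Each is the RefSeq promoter window of the H2A gene (GRCm38.p6, minus strand), which ends 50 bases after the annotated start, trimmed so that it begins next to the start of the H2B gene. Capitals mark TATAA and CCAAT, the core promoter motifs of many histone genes, and their reverse complements TTATA and ATTGG. The first stretch is chr13:23571171-23571399 (229 bases) and the second is chr13:22035594-22035820 (227 bases).
H2ac8: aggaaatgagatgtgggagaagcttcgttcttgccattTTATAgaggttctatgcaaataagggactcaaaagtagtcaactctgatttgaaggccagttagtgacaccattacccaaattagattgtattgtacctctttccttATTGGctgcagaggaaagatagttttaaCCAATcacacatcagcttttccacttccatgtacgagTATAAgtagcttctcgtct
H2ac12: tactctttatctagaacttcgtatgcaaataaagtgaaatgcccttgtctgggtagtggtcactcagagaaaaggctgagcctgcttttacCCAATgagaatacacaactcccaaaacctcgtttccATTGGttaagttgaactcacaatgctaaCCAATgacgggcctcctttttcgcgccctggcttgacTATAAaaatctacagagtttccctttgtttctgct
In both, a TATAA on the strand of the H2A gene begins after the annotated start, at position 32 in H2ac8 and 16 in H2ac12, counted from 1 at the start. Over windows of 250 bases before to 50 after the start, found for 58 members, TATAA stood on either strand in 38 of 53 other members (71.7%) and in 0 of 5 replacement variants, against 25.5% of 27025 promoters. CCAAT stood in 46 of 53 (86.8%) and in 3 of 5 (H2az1, H2aj and H2az2), against 37.9%.

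After p53 restoration, some histone genes fell and no member tested rose past the threshold. With sgBgal, 13 of the 50 tested (26%) were called lower and 0 higher, against 2.17% and 5.46% of all genes. With sgPpia#3.2, 4 (8%) were lower and 0 higher, against 1.31% and 4.44%. With sgPpia#4.1, 7 (14%) were lower and 0 higher, against 1.79% and 4.3%. These shares are over members that passed the filter on low values, so they describe the 50 and do not measure the family. Of the 13 called with sgBgal, 7 passed the filter through their Control samples alone (H2bc11, H2bc12, H3c8, H4c2, H4c3, H4c12 and H4c14), and this way of passing favors genes that are lower in Restored cells (11.2% of the 267 such genes were called lower). The other 6 were among 34 members, against 1.98% of all genes that did not pass in this way. With sgPpia#3.2 and sgPpia#4.1, 3 and 5 of those 34 were lower, against 1.27% and 1.71% (with sgPpia#3.2 and without the 4711-18 Control 4, against 1.38%). A call is an adjusted p under 0.05 (limma on log2(TPM + 1), Benjamini-Hochberg over all genes tested) with a log2 fold change of at least 1 in size. The fold change on this scale understates the change of low genes. With a block for the cell line (replicate block), 21, 6 and 14 members were lower (42%, 12% and 28%), against 3.32%, 2.21% and 2.92% of all genes, and 0 were higher, against 7.7%, 6.4% and 6.26%. Of these, 8, 1 and 4 passed the filter through Control samples alone (17.2%, 7.12% and 10.9% of all such genes were lower). The other 34 members gave 13, 5 and 10, against 3.03%, 2.11% and 2.75% of the other genes. Called with all 3 sgRNAs were H1f0, H2ax, H2az1 and H3c8, and with the block also H1f10 and H3c3. The calls without the block changed when a line was left out. With sgBgal they numbered 5 without 4711-1, 10 without 4711-18 and 3 without 4716-11, where 0.99%, 1.47% and 1.08% of all genes were called lower. In the same order, they numbered 2, 2 and 0 with sgPpia#3.2 (0.421%, 1.2% and 0.242% of all genes) and 5, 6 and 0 with sgPpia#4.1 (1.03%, 1.36% and 0.577%). Without the sgPpia#3.2 Control sample of 4711-18, 5 members were lower with sgPpia#3.2 (1.42% of all genes), and 17 with the block (2.33% of all genes).

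The log2 fold changes over the 50 members had a median of -1.08 with sgBgal, -0.61 with sgPpia#3.2 and -0.68 with sgPpia#4.1, while the medians of all genes were 0.19, 0.17 and 0.15. Without the 4711-18 Control the median with sgPpia#3.2 was -0.84, against 0.23 for all genes. After median-of-ratios rescaling, which moved the median of all genes to 0.00, -0.01 and 0.00, the members' medians were -1.17, -0.73 and -0.80. Values were below 0 for 48, 45 and 45 of the 50, against 34.8%, 34.4% and 36.5% of all genes (46 with sgPpia#3.2 without the 4711-18 Control, against 32.2%). In 20 of the 50 (40%) the Restored sample was lower in each of the 9 pairs of line and sgRNA, against 12.8% of all genes, and in H2aj alone (2%) it was higher in all 9, against 30.8%. All 3 Restored samples lay below all 3 Controls in 23 members with sgBgal (46%, against 9.19% of all genes), 11 with sgPpia#3.2 (22%, against 7.43%) and 16 with sgPpia#4.1 (32%, against 8.23%). Over the 34 members that did not pass the filter through Control samples alone, the Restored sample was lower in all 9 pairs in 16 (12.3% of all such genes), and the groups were apart in 13, 8 and 11 (8.77%, 7.09% and 7.95%). The medians of these 34 were -1.08, -0.72 and -0.72, against 0.20, 0.18 and 0.16. Restored samples of the 50 lay above all Controls in 0 members, against 22.1%, 19.1% and 17.8%. Against the 2 remaining Controls of sgPpia#3.2, without that of 4711-18, the Restored samples lay below in 33 members, against 11.5% of all genes. The least shift was in 4711-18 with sgPpia#3.2, where the members' median was -0.19 with 30 below and 20 above 0. In the other 8 pairs it was between -0.58 and -1.18.

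**Figure D1:**
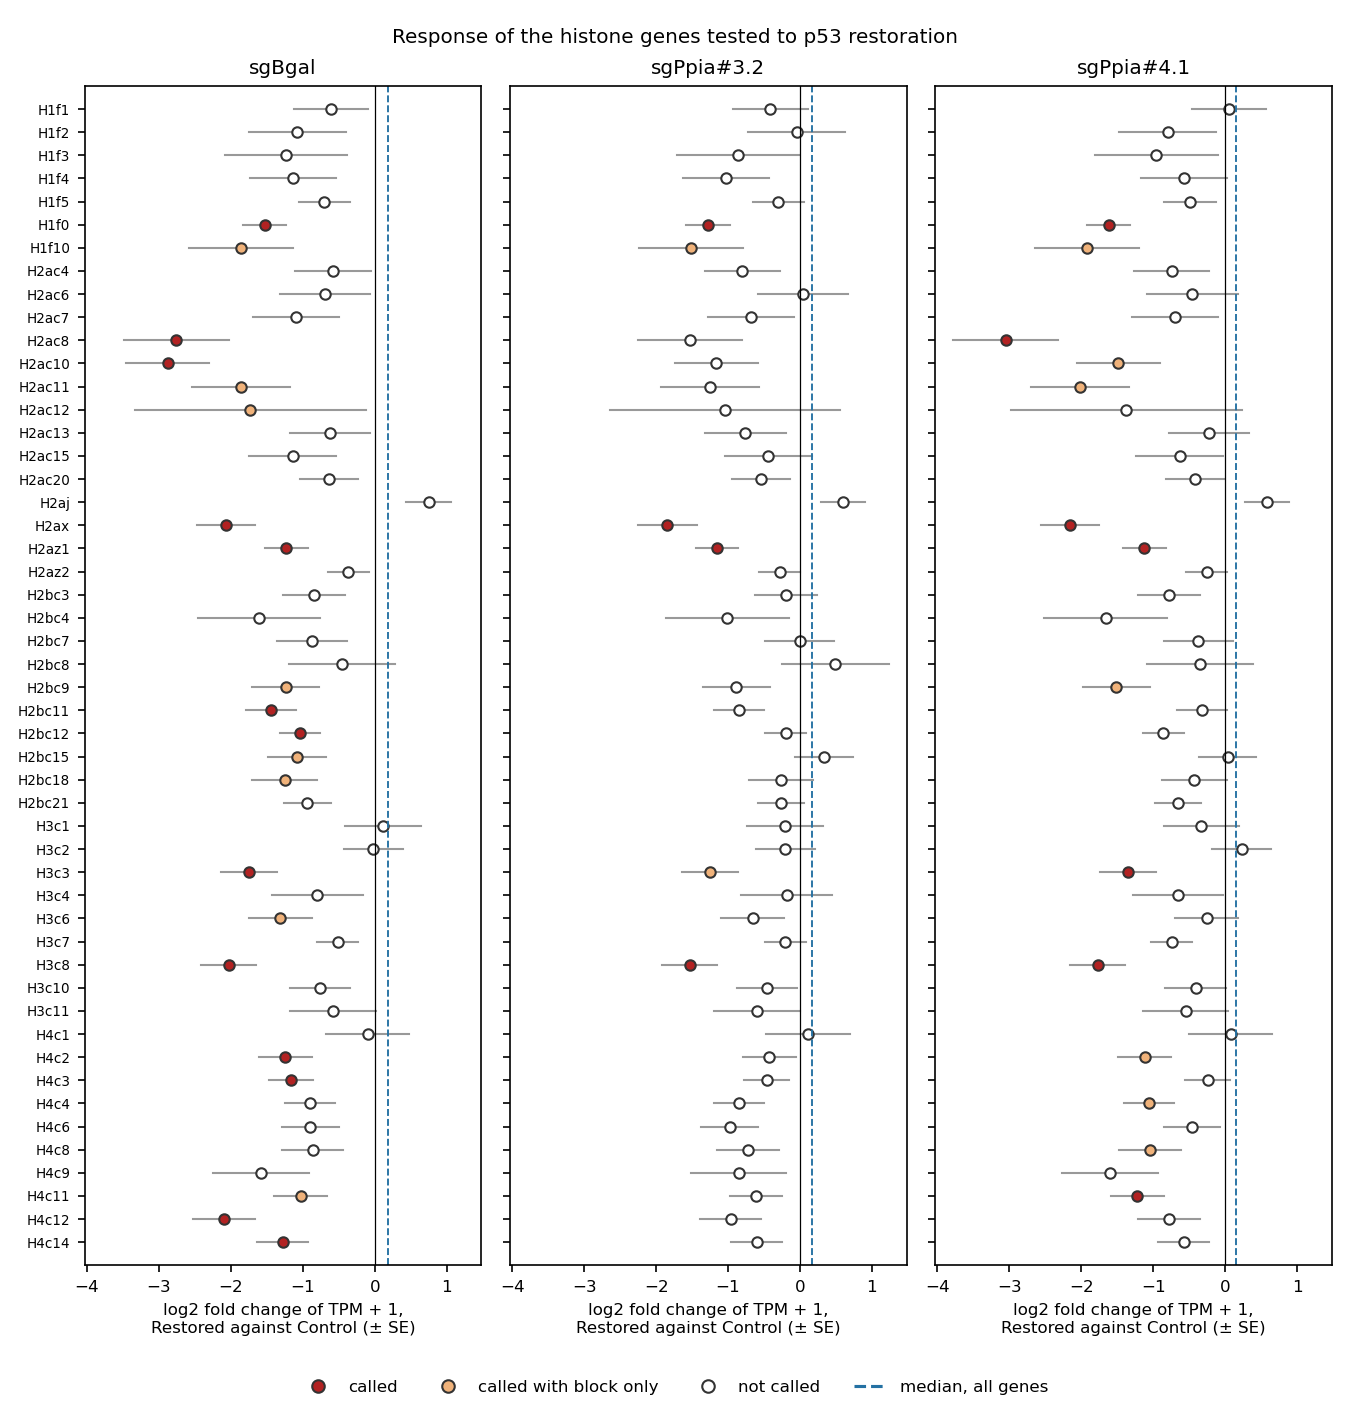
Log2 fold change of TPM + 1 (x axis, Restored against Control, ± SE) of the 50 histone genes tested (y axis), one panel per sgRNA, red where called, orange where called only with the cell line as a block, white where not called, with the median of all genes as a dashed line. Most points lie left of 0 (48, 45 and 45 of 50), and H2aj lies right of 0 in each panel (0.75, 0.60 and 0.58).

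The 6 replacement variants had a summed level of 2436 to 4071 TPM in Control and 1360 to 1958 TPM in Restored samples, and H2az1 alone reached 2688 TPM. The other 58 members summed to 125 to 1131 TPM, a level that the library type can set. H2ax, the variant phosphorylated at DNA breaks, was at 170.5, 187 and 99.3 TPM in Control and 41.4, 34.7 and 27.8 TPM in Restored cells with sgBgal. It was at 187, 68.4 and 94.2 against 43.4, 17.1 and 32.4 TPM with sgPpia#3.2 and at 111, 195 and 105 against 21.1, 36.4 and 30.7 TPM with sgPpia#4.1. Every Restored sample lay below every Control within each sgRNA, and the Control of 4711-18 with sgPpia#3.2 was the lowest Control. H2ax fell by 2.07 ± 0.41 (SE) on the log2 scale with sgBgal (adjusted p = 0.0039), by 1.84 ± 0.41 with sgPpia#3.2 (0.00987) and by 2.16 ± 0.41 with sgPpia#4.1 (0.00341; limma). H2ax shares exact runs of at least 100 bases with canonical H2A genes, so reads can be assigned to the wrong gene.

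H1f0, a linker variant that accumulates in cells that have stopped dividing, had 619.9, 775 and 669 TPM in Control and 265, 239.5 and 208 TPM in Restored cells with sgBgal. With sgPpia#3.2 it had 681, 424 and 683 against 370.5, 141 and 262 TPM, and with sgPpia#4.1 597, 780.4 and 714 against 169.5, 254 and 264 TPM. The groups did not overlap with any sgRNA. The log2 fold change was -1.53 ± 0.30 (SE; adjusted p = 0.00396), -1.28 ± 0.30 (0.0141) and -1.62 ± 0.30 (0.0032) in the order sgBgal, sgPpia#3.2 and sgPpia#4.1 (limma). H1f10, another linker variant made outside S phase, had 144, 103 and 165 TPM in Control and 43.8, 15.4 and 70.2 TPM in Restored cells with sgBgal. Its values were 151, 40.5 and 213 against 61.6, 12.5 and 68.6 TPM with sgPpia#3.2 and 100.2, 126 and 184 against 32.2, 18.7 and 66.6 TPM with sgPpia#4.1. Within each line it was lower in Restored cells, and 4711-18 was the lowest line in 5 of 6 groups. Its log2 fold changes of -1.86 ± 0.72, -1.51 ± 0.72 and -1.92 ± 0.72 (SE) did not pass without the block (limma, adjusted p = 0.103, 0.222 and 0.112) and passed with it (0.0022, 0.00912 and 0.00219).

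H2az1 and H2az2 encode the forms of H2A.Z, which is placed at gene starts. H2az1 had 1261, 2688 and 2008 TPM in Control and 627, 839 and 1007 TPM in Restored cells with sgBgal. It had 1378, 1633 and 1795 against 551, 774 and 860.0 TPM with sgPpia#3.2 and 1348, 2495 and 1722 against 678, 862 and 959 TPM with sgPpia#4.1. All Restored samples were below all Controls in each comparison. It fell by 1.23 ± 0.30 (SE) on the log2 scale with sgBgal (adjusted p = 0.0134), by 1.15 ± 0.30 with sgPpia#3.2 (0.0223) and by 1.12 ± 0.30 with sgPpia#4.1 (0.0255; limma). With sgPpia#3.2 the call was lost without the Control sample of 4711-18 (adjusted p = 0.0524; with the cell line as a block it held, 0.000434). The second form was not called. H2az2 had 105, 105 and 122 TPM in Control and 87.5, 58.5 and 122 TPM in Restored cells with sgBgal, 135, 102 and 142 against 93.6, 88.7 and 130.5 TPM with sgPpia#3.2 and 126, 103 and 129 against 114, 64.5 and 133 TPM with sgPpia#4.1. Its log2 fold changes were -0.37 ± 0.28, -0.28 ± 0.28 and -0.26 ± 0.28 (SE; limma, adjusted p = 0.433, 0.608 and 0.643), and the groups overlapped in all 3 comparisons. The value for sgPpia#3.2 was -0.43 (-0.26 with the block) without the 4711-18 Control. The difference between H2az1 and H2az2 was not tested.

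H2aj, an H2A variant known to build up in senescent cells, had higher values in Restored cells. It had 177, 214 and 331 TPM in Control and 408, 299 and 489.8 TPM in Restored cells with sgBgal. With sgPpia#3.2 it had 294, 169 and 329 against 368, 328 and 472 TPM, and with sgPpia#4.1 209, 270.4 and 363 against 351, 387 and 505 TPM. In every line the Restored sample was higher, though the groups overlapped with each sgRNA. The log2 fold changes were 0.75 ± 0.31, 0.60 ± 0.31 and 0.58 ± 0.31 (SE), under the fold needed for a call, with limma adjusted p = 0.121, 0.255 and 0.266 without the block and 0.00605, 0.0235 and 0.0268 with it. After rescaling they were 0.53, 0.40 and 0.40. Leaving out the 4711-18 Control lowered the value for sgPpia#3.2 to 0.31 (adjusted p = 0.572), and with the block to 0.39 (0.114).

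**Figure D2:**
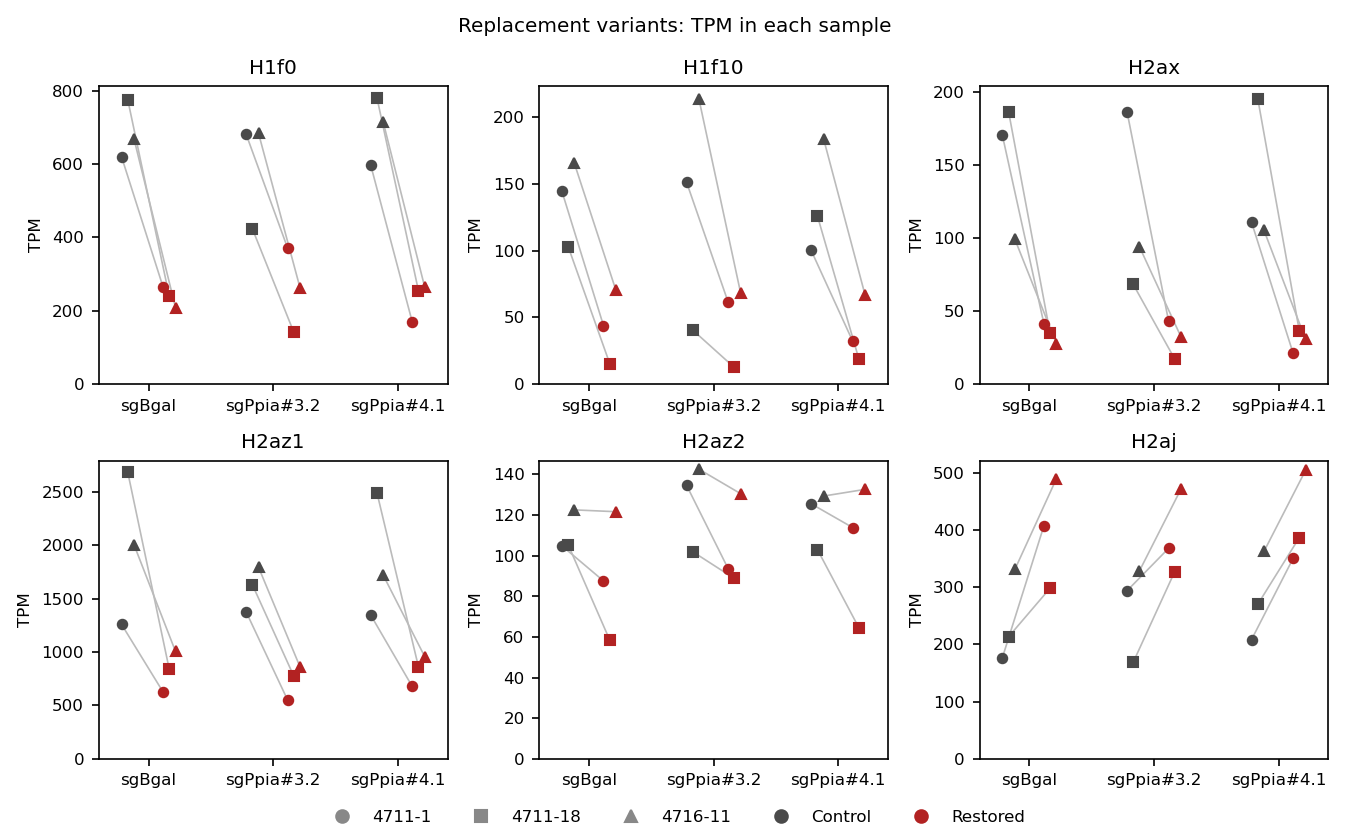
TPM (y axis, from 0) of the 6 replacement variants in each of the 18 samples, by sgRNA (x axis), with the Control (grey) and Restored (red) samples of a line joined and the line given by the marker shape. H1f0, H2ax and H2az1 are lower in the Restored sample of every pair, and H2aj is higher in every pair, as in 4711-1 with sgBgal (177 against 408 TPM).

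For the other 58 members the TPM of each class was summed, and the mean log2 ratio of Restored to Control over the 3 lines was lowest for H2A with each sgRNA. In single lines the order differed: in 4716-11 it was lowest for H4 with sgBgal (-1.81) and for H3 with sgPpia#3.2 (-2.10). Per line, the log2 ratio was -2.08, -2.72 and -1.61 with sgBgal, -1.27, -1.79 and -1.71 with sgPpia#3.2 and -2.73, -1.92 and -1.89 with sgPpia#4.1. Over the 3 lines the log2 ratio of the H2A sum was -2.14 ± 0.55, -1.59 ± 0.28 and -2.18 ± 0.48 (mean ± SD, n = 3). That of the H3 sum was -1.51 ± 0.57, -1.27 ± 0.75 and -1.55 ± 0.99, and that of the H4 sum -1.66 ± 0.20, -0.86 ± 0.38 and -1.53 ± 0.23. The log2 ratio of the H2B sum was -1.37 ± 0.14, -0.53 ± 0.40 and -1.29 ± 1.05, and that of the H1 sum -1.10 ± 0.14, -0.09 ± 0.53 and -0.81 ± 0.65. For all classes together it was -1.35 ± 0.02 with sgBgal, where the lines were close, -0.41 ± 0.49 with sgPpia#3.2 and -1.12 ± 0.59 with sgPpia#4.1. With sgPpia#3.2 the lines disagreed in sign: -0.55, 0.13 and -0.82, and the Control of 4711-18 held 251 TPM against 1131 with sgBgal and 1006 with sgPpia#4.1 in this line. Without this line the log2 ratios with sgPpia#3.2 were -1.49 for H2A, -1.58 for H3, -1.07 for H4, -0.74 for H2B and -0.39 for H1 (mean, n = 2), so H3 and not H2A was lowest. These sums were described and not tested. Over all samples H1f2 made up 95.1% of the H1 sum (92.6% to 99% in single samples), H4c9 76.7% of H4 (46.8% to 86.3%) and H2bc4 55.8% of H2B (33% to 68.8%). In H2A the leading gene differed between samples, since H2ac11 made up 7.6% to 60.1% and H2ac12 1.84% to 60.8%, and in H3 no gene passed 17.5% over all samples.

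**Figure D3:**
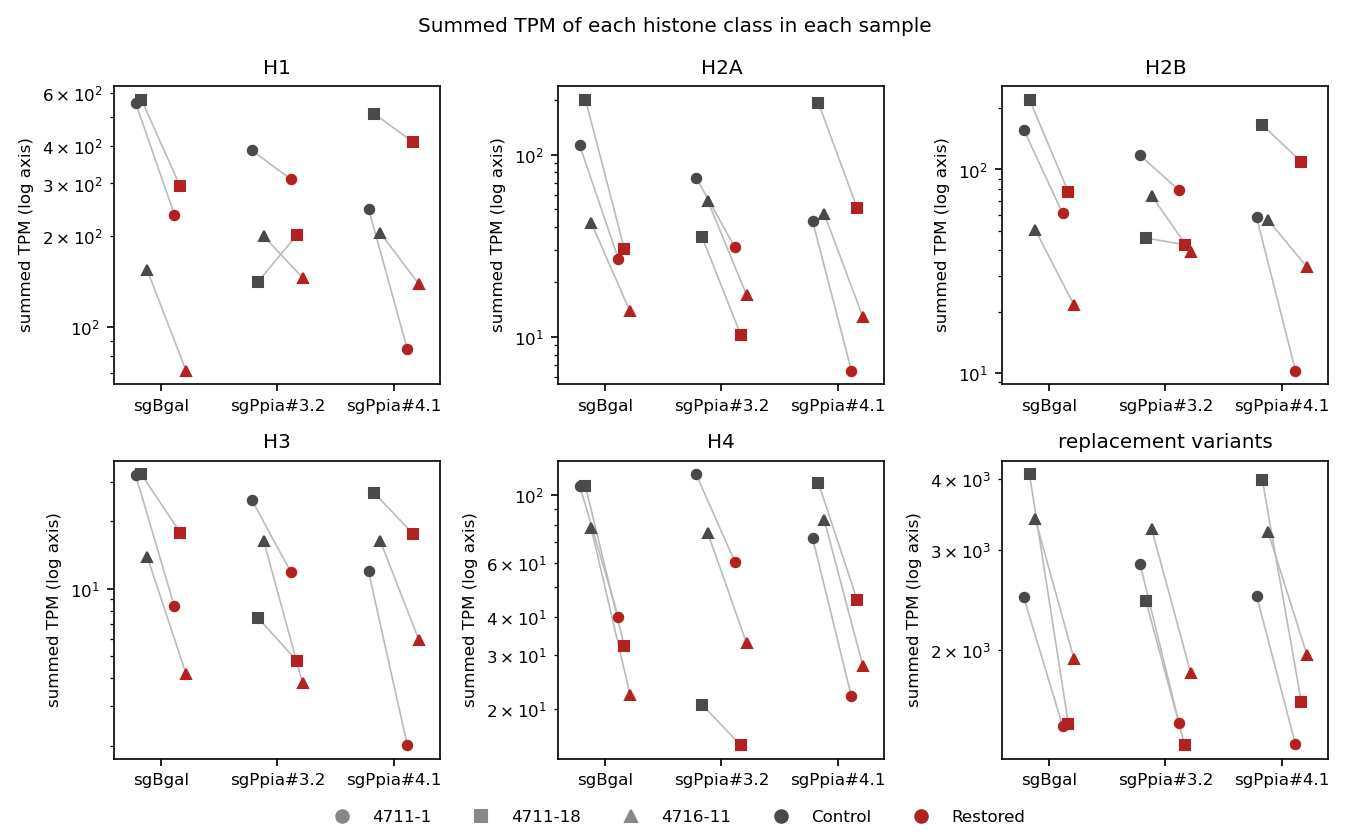
Summed TPM (y axis, log scale) of the H1, H2A, H2B, H3 and H4 members and of the replacement variants in each of the 18 samples, by sgRNA (x axis), with Control (grey) and Restored (red) samples of a line joined and the line given by the marker shape. H2A is lower in the Restored sample of all 9 pairs, and H1 is higher in 1 pair, 4711-18 with sgPpia#3.2 (141 against 202 TPM).

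Of the canonical linker histone genes, H1f2 was the most abundant. It had 521, 538 and 147 TPM in Control and 226, 277 and 69.4 TPM in Restored cells with sgBgal. With sgPpia#3.2 it had 367, 136 and 185 against 298, 199.9 and 141 TPM, and with sgPpia#4.1 239.5, 487 and 192 against 81.9, 392 and 131 TPM. The groups overlapped with each sgRNA, and 4716-11 held the lowest Control with sgBgal and sgPpia#4.1. The log2 fold changes were -1.08 ± 0.68, -0.05 ± 0.68 and -0.80 ± 0.68 (SE) and none passed (limma, adjusted p = 0.322, 0.979 and 0.524). Its sgPpia#3.2 value without the 4711-18 Control was -0.36 (-0.70 with the block), which did not pass either. H1f3 had 17.7, 22.9 and 5.31 TPM in Control and 6.67, 9.34 and 1.75 TPM in Restored cells with sgBgal, 11.8, 1.62 and 6.99 against 6.48, 1.01 and 1.98 TPM with sgPpia#3.2 and 4.51, 15.6 and 6.81 against 0.401, 12.8 and 4.06 TPM with sgPpia#4.1. It was lower in Restored cells in all 9 pairs, with log2 fold changes of -1.23 ± 0.85, -0.86 ± 0.85 and -0.96 ± 0.85 (SE) that did not pass (limma, adjusted p = 0.371, 0.596 and 0.547). For H1f3 with sgPpia#3.2 and without the 4711-18 Control it was -1.51 (-1.83 with the block), with adjusted p = 0.322 and 0.105. Of the 5 canonical H1 genes tested, 0 were called with any sgRNA, with or without the block, where 2.17%, 1.31% and 1.79% of all genes were lower (3.32%, 2.21% and 2.92% with the block).

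Of the 10 canonical H2A genes tested, 2 were called lower with sgBgal, 0 with sgPpia#3.2 and 1 with sgPpia#4.1. Of all genes, 2.17%, 1.31% and 1.79% were lower. With the block 4, 0 and 3 were lower, against 3.32%, 2.21% and 2.92% of all genes. With the block and without the 4711-18 Control, 4 were lower with sgPpia#3.2 (H2ac4, H2ac8, H2ac11 and H2ac13), against 2.33% of all genes. H2ac8 had 17.8, 40.5 and 6.45 TPM in Control and 2.39, 1.78 and 0.998 TPM in Restored cells with sgBgal, resting on 110 to 565 reads in Control and 16 to 26 in Restored samples. It had 16.7, 2.96 and 9.13 against 3.51, 0.702 and 2.82 TPM with sgPpia#3.2 and 7.99, 48.4 and 8.88 against 0.496, 2.04 and 0.684 TPM with sgPpia#4.1. The groups did not overlap with sgBgal and sgPpia#4.1, and with sgPpia#3.2 the Control of 4711-18 lay among the Restored samples. H2ac8 fell by 2.76 ± 0.73 (SE) on the log2 scale with sgBgal (adjusted p = 0.0214) and by 3.05 ± 0.73 with sgPpia#4.1 (0.0149), and with sgPpia#3.2 the log2 fold change of -1.53 ± 0.73 did not pass (0.216; limma). It was -2.12 without the 4711-18 Control (adjusted p = 0.0994), and with the block -2.38 (0.0203), which passed. H2ac10 had 43.7, 12.2 and 4.41 TPM in Control and 0.814, 0.986 and 1.24 TPM in Restored cells with sgBgal. Its values were 4.01, 2.07 and 3.39 against 1.48, 0.311 and 0.859 TPM with sgPpia#3.2 and 2.77, 7.9 and 2.67 against 0.686, 1.6 and 0.284 TPM with sgPpia#4.1. The Control of 4711-1 with sgBgal (467 reads) was far above all other samples, which stayed at or below 12.2 TPM. The log2 fold change with sgBgal was -2.88 ± 0.57 (SE; limma, adjusted p = 0.00447), and it did not pass without 4711-1 (adjusted p = 0.0813). The groups were apart with each sgRNA. The values of -1.16 ± 0.57 with sgPpia#3.2 and -1.48 ± 0.57 with sgPpia#4.1 did not pass (adjusted p = 0.238 and 0.121), and with the block that of sgPpia#4.1 did (0.0476). H2ac11, the most abundant canonical H2A gene over all samples, had 25.9, 27.9 and 22.8 TPM in Control and 13.6, 2.32 and 7.08 TPM in Restored cells with sgBgal, 37.1, 5.34 and 27.5 against 15.3, 2.41 and 8.09 TPM with sgPpia#3.2 and 20.6, 26.3 and 26.3 against 2.49, 7.03 and 7.69 TPM with sgPpia#4.1. It was lower in Restored cells in every line, with log2 fold changes of -1.85 ± 0.68, -1.26 ± 0.68 and -2.02 ± 0.68 (SE). They passed with the block with sgBgal and sgPpia#4.1 (limma, adjusted p = 0.0245 and 0.0194; 0.0863 and 0.0773 without it). The value for sgPpia#3.2 passed with the block once the 4711-18 Control was left out (-1.87, adjusted p = 0.036), and without the block it was -2.05 (0.0577).

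H2ac12 was high in 1 line. It had 3.34, 84.9 and 2.32 TPM in Control and 0.491, 14.5 and 0.467 TPM in Restored cells with sgBgal, 1.88, 21.6 and 2.01 against 0.893, 3.45 and 1.66 TPM with sgPpia#3.2 and 1.14, 85.8 and 2.45 against 0.199, 21.4 and 0.366 TPM with sgPpia#4.1. Over its 6 samples the median in 4711-18 was 21.5 TPM, against 1.02 in 4711-1 and 1.83 in 4716-11. Within 4711-18 its log2 ratio of Restored to Control was -2.47, -2.34 and -1.95 with the 3 sgRNAs. The log2 fold change with sgBgal was -1.73 ± 1.60 (SE) with adjusted p = 0.526 without the block and 0.0344 with it (limma). The value for sgPpia#3.2 was -1.04 ± 1.60, and without the 4711-18 Control -0.06 (-1.26 with the block), and did not pass. Its head-to-head neighbor H2bc12, whose start lies 178 bases away, stayed low in all lines. H2bc12 had 1.89, 2.4 and 1.37 TPM in Control and 0.308, 0.596 and 0.279 TPM in Restored cells with sgBgal, 1.79, 0.261 and 1.62 against 0.995, 0.784 and 0.709 TPM with sgPpia#3.2 and 1.07, 1.34 and 2.04 against 0, 0.569 and 0.573 TPM with sgPpia#4.1. It was called with sgBgal (-1.04 ± 0.28 (SE), limma, adjusted p = 0.0234) on 3 to 30 reads per sample. Its log2 fold change with sgPpia#3.2 was -0.20 ± 0.28, and without the 4711-18 Control -0.57 (-0.62 with the block), under the fold needed for a call. The high level in 4711-18 was seen in H2ac12 and not in H2bc12.

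The neighbors H2ac8 and H2bc8 also differed in these samples. H2bc8 had 25.6, 62.9 and 7.96 TPM in Control and 24.5, 27.5 and 7.13 TPM in Restored cells with sgBgal. With sgPpia#3.2 it had 15.9, 7.59 and 17.2 against 21.2, 18.2 and 16.3 TPM, and with sgPpia#4.1 10.6, 30.9 and 13.7 against 4.62, 37 and 11.3 TPM. The groups overlapped throughout, and H2bc8 was higher in Restored cells in 3 of 9 pairs while H2ac8 was lower in all 9. The log2 fold changes of H2bc8 were -0.45 ± 0.74, 0.49 ± 0.74 and -0.35 ± 0.74 (SE; limma, adjusted p = 0.742, 0.761 and 0.834). For sgPpia#3.2 without the 4711-18 Control it was 0.15 (-0.29 with the block), so its sign depended on the fit. The starts of the pair lie 180 bases apart, and the annotated transcripts of both run on past the stem-loop, by 151 and 155 bases. The difference between H2ac8 and H2bc8 was not tested. Of the 7 pairs found, the H2A member had the higher median TPM in 5 and the H2B member in 1. H2ac1 and H2bc1, the germ-line pair, were at 0 in all samples. H2bc4 and H2bc21 had no promoter window, so this count leaves out any pair with them and does not rank H2A above H2B.

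**Figure D4:**
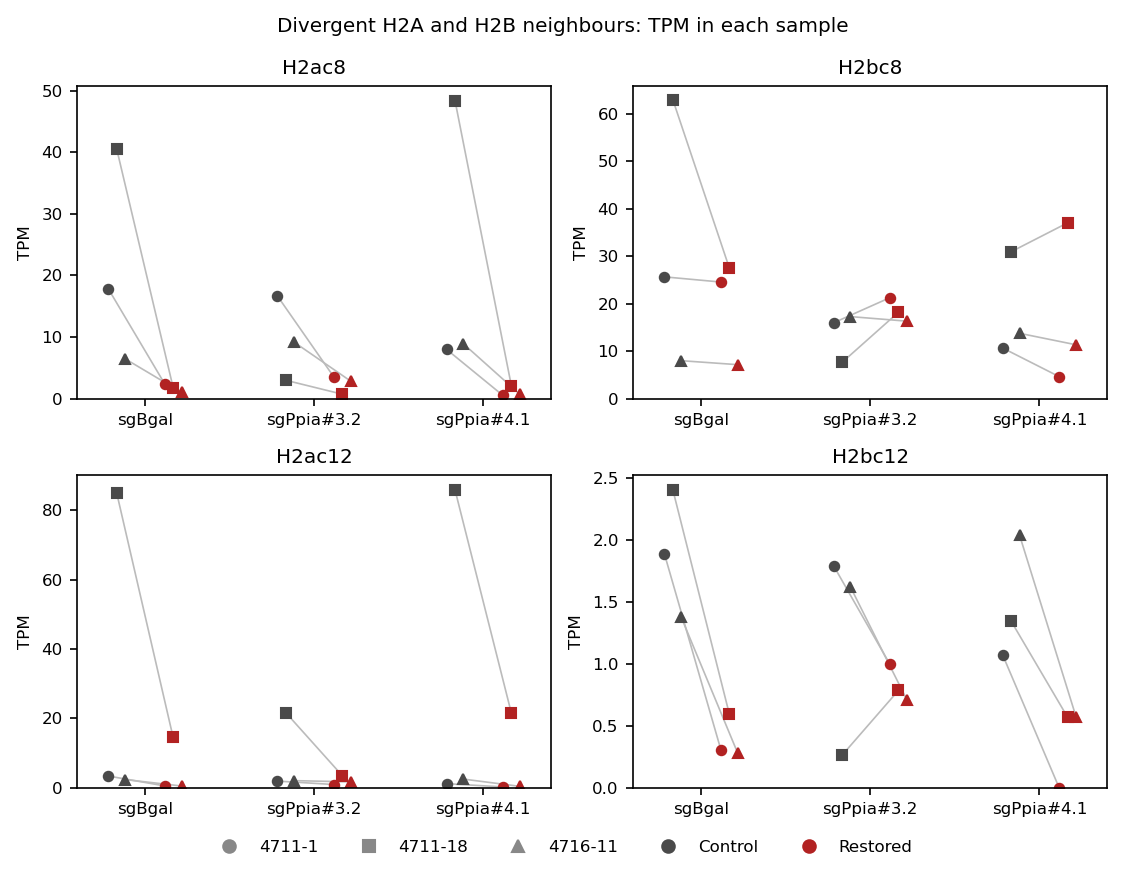
TPM (y axis, from 0) of the head-to-head neighbors H2ac8 with H2bc8 and H2ac12 with H2bc12 in each of the 18 samples, by sgRNA (x axis), with Control (grey) and Restored (red) samples of a line joined and the line given by the marker shape. H2ac8 is lower in the Restored sample of all 9 pairs and H2bc8 in 6, and H2ac12 is high in 4711-18 alone (84.9 TPM in its sgBgal Control), where H2bc12 is at 2.4 TPM.

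Of the 10 H2B genes tested, 2 were called lower with sgBgal, 0 with sgPpia#3.2 and 0 with sgPpia#4.1. Of all genes, 2.17%, 1.31% and 1.79% were lower. The 2 called, H2bc11 and H2bc12, passed the filter through their Control samples alone. Of all genes that passed in this way, 11.2% were lower with sgBgal. With the block 5, 0 and 1 H2B genes were lower, against 3.32%, 2.21% and 2.92% of all genes. Without the 4711-18 Control, H2bc9 was lower with sgPpia#3.2 (-1.46, limma, adjusted p = 0.0422), against 1.42% of all genes. With the block H2bc9 and H2bc11 were, against 2.33%. H2bc4, the most abundant, had 95.4, 122 and 27.9 TPM in Control and 27.7, 38.8 and 9.57 TPM in Restored cells with sgBgal. With sgPpia#3.2 it had 80.8, 31 and 39.9 against 43.8, 16.7 and 15.6 TPM, and with sgPpia#4.1 35, 108 and 27.6 against 3.38, 55.9 and 13.1 TPM. It was lower in Restored cells in all 9 pairs, and the lowest level, 3.38 TPM, was in Restored 4711-1 cells with sgPpia#4.1. The log2 fold changes of -1.61 ± 0.85, -1.01 ± 0.85 and -1.66 ± 0.85 (SE) did not pass with or without the block (limma, adjusted p with the block 0.0946, 0.306 and 0.0949). For sgPpia#3.2 without the 4711-18 Control it was -1.29 (-1.72 with the block), with adjusted p = 0.106 with the block. H2bc11 had 3.58, 3.39 and 2.7 TPM in Control and 0.334, 1.29 and 0.227 TPM in Restored cells with sgBgal, 2.94, 0.944 and 2.41 against 0.877, 0.595 and 0.512 TPM with sgPpia#3.2 and 0.58, 1.87 and 1.64 against 0.15, 1.75 and 0.932 TPM with sgPpia#4.1. It was called with sgBgal (-1.44 ± 0.35 (SE), limma, adjusted p = 0.0137), and with sgPpia#3.2 and sgPpia#4.1 the log2 fold changes of -0.84 ± 0.35 and -0.32 ± 0.35 did not pass (0.15 and 0.629). The value with sgPpia#3.2 was -1.15 without the 4711-18 Control (adjusted p = 0.0604), and with the block -1.30 (0.00693), which passed.

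H3 genes were low, and 2 of the 9 tested were called lower with sgBgal, 1 with sgPpia#3.2 and 2 with sgPpia#4.1. Of all genes, 2.17%, 1.31% and 1.79% were lower. With the block 3, 2 and 2 H3 genes were, against 3.32%, 2.21% and 2.92% of all genes. Without the 4711-18 Control, 2 were lower with sgPpia#3.2 (H3c3 and H3c8), and with the block also H3c6, against 1.42% and 2.33% of all genes. H3c8 passed the filter through its Control samples alone, and of all such genes 11.2%, 3.37% and 5.24% were lower with the 3 sgRNAs. H3c8 had 8.15, 5.29 and 2.33 TPM in Control and 0.313, 0.202 and 0.778 TPM in Restored cells with sgBgal, on 35 to 85 and 2 to 11 reads. It had 5.87, 1.5 and 3.11 against 0.379, 0.0797 and 0.96 TPM with sgPpia#3.2 and 3.32, 2.73 and 4.14 against 0.492, 0 and 0.388 TPM with sgPpia#4.1. The groups did not overlap in any of these comparisons. H3c8 fell by 2.03 ± 0.38 (SE) on the log2 scale with sgBgal (adjusted p = 0.00302), by 1.53 ± 0.38 with sgPpia#3.2 (0.02) and by 1.77 ± 0.38 with sgPpia#4.1 (0.00856; limma). H3c3 had 5.9, 5 and 4.09 TPM in Control and 0.214, 1.86 and 0.58 TPM in Restored cells with sgBgal, 4.03, 1.72 and 4.43 against 0.907, 0.653 and 0.738 TPM with sgPpia#3.2 and 1.98, 5 and 5.13 against 0.144, 1.09 and 1.79 TPM with sgPpia#4.1. Its groups did not overlap either, and its log2 fold changes were -1.75 ± 0.39 (SE; adjusted p = 0.00871), -1.25 ± 0.39 (0.0552, not called; 0.0186 with the block, and 0.0289 without the 4711-18 Control) and -1.35 ± 0.39 (0.0396; limma).

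Of the 10 H4 genes tested, 4 were called lower with sgBgal, 0 with sgPpia#3.2 and 1 with sgPpia#4.1. Of all genes, 2.17%, 1.31% and 1.79% were lower. With the block 5, 0 and 4 H4 genes were, against 3.32%, 2.21% and 2.92% of all genes. With the block and without the 4711-18 Control, 4 were lower with sgPpia#3.2 (H4c8, H4c9, H4c12 and H4c14), against 2.33% of all genes. H4 genes encode the same protein from different mRNAs, and H4c9 held most of the reads. H4c9 had 78.6, 79.8 and 58.3 TPM in Control and 30.4, 22.3 and 18.4 TPM in Restored cells with sgBgal. With sgPpia#3.2 it had 95.2, 11.4 and 58.9 against 52.1, 7.1 and 27.4 TPM, and with sgPpia#4.1 59.8, 82 and 67.7 against 16.9, 29.8 and 21.6 TPM. The groups did not overlap with sgBgal and sgPpia#4.1, and the Control of 4711-18 with sgPpia#3.2 was below the other Controls and among the Restored samples. Its log2 fold changes were -1.58 ± 0.66, -0.85 ± 0.66 and -1.60 ± 0.66 (SE) and did not pass (limma, adjusted p = 0.13, 0.484 and 0.147; 0.0522, 0.297 and 0.057 with the block). The value for sgPpia#3.2 was -1.72 without the 4711-18 Control (adjusted p = 0.0706), and with the block -1.65 (0.0401), which passed.

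The H4 genes called with sgBgal were H4c12, H4c14, H4c2 and H4c3, all below 9 TPM. Each reached 1 TPM in at most 1 Restored sample and was tested because of its Control samples. Of all genes that passed the filter through Control samples alone, 11.2% were lower with sgBgal. H4c12 had 6, 8.13 and 2.32 TPM in Control and 0.251, 0.729 and 0.256 TPM in Restored cells with sgBgal, 2.61, 0.319 and 1.39 against 0.532, 0 and 0 TPM with sgPpia#3.2 and 2.62, 3.99 and 1.28 against 0.676, 2.09 and 0.584 TPM with sgPpia#4.1. Its log2 fold change with sgBgal was -2.10 ± 0.43 (SE; limma, adjusted p = 0.00539). The same values for H4c14 were 3.19, 1.88 and 2.81 against 0.801, 0.518 and 0.181 TPM with sgBgal, 3.16, 0.68 and 2.19 against 0.648, 0.919 and 1.03 TPM with sgPpia#3.2 and 0.619, 3.25 and 0.856 against 0.36, 0.618 and 0.747 TPM with sgPpia#4.1. Its log2 fold change with sgBgal was -1.28 ± 0.35 (adjusted p = 0.0272). H4c2 had 2.2, 0.534 and 3.12 against 0, 0.331 and 0.155 TPM with sgBgal, 1.54, 0 and 0.733 against 0.553, 0.174 and 0 TPM with sgPpia#3.2 and 1.39, 1.49 and 2.04 against 0.0768, 0 and 0.637 TPM with sgPpia#4.1, and H4c3 0.629, 2.35 and 1.66 against 0.137, 0.133 and 0 TPM, 1.08, 0.232 and 1.04 against 0.166, 0.418 and 0.21 TPM and 0.0793, 1.41 and 0.613 against 0.277, 0.759 and 0.127 TPM. With sgBgal their log2 fold changes were -1.24 ± 0.36 (adjusted p = 0.0352) and -1.16 ± 0.31 (0.023; SE, limma). With sgPpia#4.1 that of H4c2 was -1.12 ± 0.36 and passed only with the block (adjusted p = 0.0151, and 0.0658 without it). The groups of all 4 genes were apart with sgBgal and overlapped with sgPpia#3.2. Their log2 fold changes with sgPpia#3.2 were -0.97 ± 0.43, -0.60 ± 0.35, -0.42 ± 0.36 and -0.46 ± 0.31 in the order H4c12, H4c14, H4c2 and H4c3, and none passed. They were, without the 4711-18 Control, -1.35 (-1.54 with the block), -0.97 (-1.04 with the block), -0.78 (-0.68 with the block) and -0.71 (-0.87 with the block), and those of H4c12 and H4c14 passed with the block. H4c11, singled out after its values were seen, was called with sgPpia#4.1 (-1.22 ± 0.37 (SE), limma, adjusted p = 0.0466) and with the block also with sgBgal. H4c1 was higher in Restored cells in 5 of 9 pairs. It had 2.9, 4.58 and 1.73 against 3.38, 4.59 and 0.995 TPM with sgBgal, 3.24, 0.956 and 1.78 against 3.14, 2.76 and 0.865 TPM with sgPpia#3.2 and 2.87, 3.48 and 1.52 against 0.76, 9.38 and 1.78 TPM with sgPpia#4.1. Its log2 fold changes were -0.09 ± 0.58, 0.11 ± 0.58 and 0.07 ± 0.58 (SE; limma, adjusted p = 0.942, 0.94 and 0.962), and the signs of the last 2 changed with the scaling. That for sgPpia#3.2 was -0.16 (-0.48 with the block) without the 4711-18 Control.

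The other 26 members tested had medians of 0.28 to 3.27 TPM. Their log2 fold changes ran from -1.31 to 0.12 with sgBgal (25 below 0), from -1.02 to 0.34 with sgPpia#3.2 (24 below 0) and from -1.51 to 0.23 with sgPpia#4.1 (23 below 0). Called were 0, 0 and 1 of them (H4c11), and with the block 5 (H2bc9, H2bc15, H2bc18, H3c6 and H4c11), 0 and 4 (H2bc9, H4c4, H4c8 and H4c11). Of all genes 2.17%, 1.31% and 1.79% were lower, and 3.32%, 2.21% and 2.92% with the block. Leaving out the 4711-18 Control, 1 of them was lower with sgPpia#3.2 (H2bc9, against 1.42% of all genes). With the block 5 were (H2ac4, H2ac13, H2bc9, H3c6 and H4c8, against 2.33%). These genes are named after their values were seen. Of the germ-line members, H1f6 and H1f8 did not exceed 0.322 and 0.300 TPM, H1f7 had 1 read in 1 sample, and H2ac1 and H2bc1 were at 0. Many histone mRNAs are near-copies, and 39 of the 50 tested share an exact run of at least 100 bases with another member. How the counting treated reads that match several genes is not given in the sources used here, so values of single canonical genes are less certain than class sums.

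The next comparisons ask whether the Ppia sgRNAs changed histone mRNA or its response to p53. Against sgBgal, 0 of the 50 members were called with either Ppia sgRNA, in Control or Restored cells, as were 0% of all genes with limma. Ppia itself was thus not called, at 658 to 1207 TPM with sgPpia#3.2 and 2575 to 2849 TPM with sgBgal in Control cells. A fall of this size did not pass, so 0 calls do not show that histone mRNA was unchanged. At an unadjusted p under 0.05 there were 4 members with sgPpia#3.2 in Control cells (2.42% of all genes), all lower: H2ac10 (log2 fold change -1.86), H2ac15 (-1.30), H2bc15 (-1.05) and H4c12 (-1.41). The high sgBgal Control of 4711-1 enters each comparison of H2ac10. When the 4711-18 Control was left out there were 2 (2.19% of all genes). With sgPpia#4.1 in Control cells there were 2 (0.21% of all genes), H2ac10 (-1.57) and H2bc11 (-0.88), and in Restored cells there were 0 with either sgRNA (1.2% and 0.53% of all genes). The restoration response differed from that with sgBgal in 0 members by limma's interaction term (0% of all genes), and at an unadjusted p under 0.05 in 1 for sgPpia#3.2 (H2bc15, 1.41; 0.242% of all genes, and 0 without the 4711-18 Control) and 2 for sgPpia#4.1 (H2bc11, 1.11, and H4c12, 1.32; 0.14%). These genes are named because their counts are small, and their values were seen first. With the block these unadjusted counts were 7 and 4 in Control cells (12.7% and 1.26% of all genes), 0 in Restored cells (8.64% and 3.31%), and 2 and 4 for the response (1.36% and 0.624%). Voom on recovered reads also called 0 members in these 6 comparisons, with or without the block. Limma with the block called 0.0156% and 0.0078% of all genes with sgPpia#3.2 in Control and Restored cells, none of them members. In Control cells 47 of 50 members were below sgBgal with sgPpia#3.2 (median -0.47) and 46 with sgPpia#4.1 (median -0.27), while 63.9% and 62.8% of all genes were. Without the 4711-18 Control, 35 were below with sgPpia#3.2 (median -0.19), against 68.8% of all genes (median -0.13). With the block as well, 29 were below (median -0.04), against 67.9% of all genes (median -0.10). In Restored cells 26 and 27 were below (medians 0.00 and -0.03), against 66.3% and 67.6% of all genes. The interaction term was above 0 (a log2 fold change above that with sgBgal) in 43 members for sgPpia#3.2 (median 0.46) and 35 for sgPpia#4.1 (median 0.21), with medians of -0.01 and -0.03 over all genes. It was below 0 in 7 and 15 members, against 51.3% and 58.9% of all genes. Without the 4711-18 Control, 31 were above 0 for sgPpia#3.2 (median 0.11), against 57.3% of all genes (median 0.04). With the block as well, 28 were above 0 (median 0.05), against 51.7% of all genes (median 0.01). All these comparisons share the sgBgal samples.

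Genes that make and place histones were examined as 2 lists. Of 18 genes tested for histone transcription and 3' end processing, 0 were called with any sgRNA, where 7.64%, 5.75% and 6.09% of all genes were called in either direction, and with the block Ccne1, a cyclin that drives S phase entry, was higher with each (11%, 8.61% and 9.18% of all genes). The medians were 0.04, 0.13 and 0.15, near those of all genes. Slbp, whose protein binds the stem-loop, was at 121, 148 and 135 TPM in Control and 147, 158 and 207 TPM in Restored cells with sgBgal. Its log2 fold changes were 0.33 ± 0.27, 0.55 ± 0.27 and 0.35 ± 0.27 (SE; limma, adjusted p = 0.458, 0.228 and 0.468). Npat, the coactivator of the histone gene clusters, had log2 fold changes of 0.29 ± 0.20, 0.26 ± 0.20 and 0.12 ± 0.20 (adjusted p = 0.353, 0.471 and 0.769). Of 20 S phase genes 0 were called (with the block 1, Ccne1, higher), with medians of -0.10, 0.27 and 0.03, and their summed level was 1959 to 4887 TPM in Control and 2406 to 6061 TPM in Restored samples.

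Of 31 histone chaperone and deposition genes tested, 3 were called with sgBgal and 2 with each Ppia sgRNA, beside 7.64%, 5.75% and 6.09% of all genes, so the share is near the background. Dnajc9, a chaperone of H3 and H4, was at 142, 142 and 101 TPM in Control and 348, 312 and 355 TPM in Restored cells with sgBgal. It rose with each sgRNA, by 1.41 ± 0.19, 1.72 ± 0.19 and 1.54 ± 0.19 (SE) on the log2 scale (limma, adjusted p = 0.000299, 6.14e-05 and 0.000163). Anp32e, which removes H2A.Z from chromatin, fell with each, as H2az1 did. Its level was 108, 218 and 116 TPM in Control and 58.8, 59.8 and 50.5 TPM in Restored cells with sgBgal, and its log2 fold changes were -1.30 ± 0.27, -1.16 ± 0.27 and -1.28 ± 0.27 (adjusted p = 0.00583, 0.0136 and 0.00738). Asf1b, an H3 and H4 chaperone of dividing cells, was called with sgBgal (-1.04 ± 0.32 (SE), adjusted p = 0.0443) and not with the others (-0.77 ± 0.32 and -0.99 ± 0.32, adjusted p = 0.158 and 0.067). The H3 and H4 chaperone gene Nasp had log2 fold changes of -0.60 ± 0.37, -0.47 ± 0.37 and -0.65 ± 0.37, and the chromatin assembly gene Chaf1a had 0.17 ± 0.22, 0.39 ± 0.22 and 0.31 ± 0.22 and Chaf1b 0.50 ± 0.37, 0.62 ± 0.37 and 0.46 ± 0.37, none called. With sgPpia#3.2 the Control of 4711-18 was the lowest, at 42.3 TPM for Nasp (116 and 95.6 in the others) and 53.9 TPM for Chaf1b (84.3 and 109). The sgPpia#3.2 values of both genes depend on this sample. With the block Ep400, part of the complex that places H2A.Z, was also higher with sgBgal. Of 4 other replacement histones tested only Cenpa, the centromeric H3 variant, was called. It fell from 103, 133 and 126 TPM to 18.9, 12.8 and 33.8 TPM with sgBgal, with log2 fold changes of -2.51 ± 0.38, -2.38 ± 0.38 and -2.64 ± 0.38 (SE; limma, adjusted p = 0.000597, 0.001 and 0.000441).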

How the data were processed

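The authors isolated RNA of 18 samples, and a commercial provider made libraries with NEBNext Ultra II and sequenced them. The authors deposited TPM for 25239 genes, 1 column per sample. HISAT2 and the builds mm10 and GRCm39 stand in the submitters' processing notes and Kallisto is also named by the study; which made these values, the annotation, strand and the treatment of reads matching several genes are not given in the sources used here.

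Low TPM steps gave whole reads (or read pairs) for 99.973% of the genes above 0, within 0.0001 read and a relative 1e-06, and totals of 43282816 to 75999848 per sample. TPM + 1 was log2 transformed and tested with limma 3.58.1 (lmFit and eBayes, R 4.3.3), with 1 mean per group and all genes of at least 1 TPM in at least 3 samples. Calls needed a Benjamini-Hochberg adjusted p under 0.05 and a log2 fold change of at least 1 in size (the interaction only the p). The replicate number is the cell line, which the labels give: deviations of samples of a line correlated at 0.73 on average (lowest 0.58, 45 pairs, across genes), so the fit with this pairing as a replicate block is given where it changed a call or a count.

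Values in every sample are given for the 6 replacement variants, the members called with sgBgal and the 2 most abundant others per class. Further genes came from lists of histone processing, chaperone, replacement histone, S phase and cell marker genes. Members and lists were chosen with earlier results of these data known. Sequences came from RefSeq and GENCODE M21, with Python 3.11.15. Tests were checked on simulated data. Alternatives were median-of-ratios rescaling, a pseudocount of 0.1, no filter or one of 5 TPM, no minimum fold, compared groups only, trend and robust eBayes, the block, and leaving out each line. Added after seeing the data were leaving out the sgPpia#3.2 Control sample of 4711-18, the block with it or with rescaling, and voom on the recovered reads.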

Additional observations from a re-analysis of the deposited data

Results flagged for a closer look

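H3c1, a canonical H3 gene, differed in direction between cell lines. In 4711-18 the Restored sample was higher with each sgRNA, with a mean log2 ratio of TPM + 1 of 0.40 (0.80, 0.16 and 0.25 for sgBgal, sgPpia#3.2 and sgPpia#4.1). The sgPpia#3.2 value uses the 4711-18 Control that stood apart, with 0.52 TPM (6 reads) against 0.70 TPM (9 reads) in the Restored sample. In 4716-11 it was lower with each, with a mean of -0.57 (-0.53, -0.71 and -0.47 in the same order). H3c1 stayed between 0.416 and 5.44 TPM in all 18 samples. The difference between the lines was not tested.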

How the results depend on the processing

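The numbers of members called lower with sgBgal, sgPpia#3.2 and sgPpia#4.1 (13, 4 and 7) changed as follows. With the replicate block they were 21, 6 and 14 (3.32%, 2.21% and 2.92% of all genes, from 2.17%, 1.31% and 1.79%). After the block with rescaling they were 24, 8 and 15 (4.71%, 3.2% and 4.01%), with the block without the sgPpia#3.2 Control sample of 4711-18 22, 17 and 15 (3.34%, 2.33% and 2.95%), and with the block in voom 20, 9 and 16 (5.48%, 4.12% and 5.17%). Leaving out a line gave 3 to 10, 0 to 2 and 0 to 6. With a filter of 5 TPM, 7 were lower with sgBgal (2.36%), and with the compared groups only, 0 with sgPpia#3.2 (0.413%). No alternative called a member higher, and the other settings kept each count within 1.5 times. For these counts the fewer samples, or fewer genes passing the filter, are part of the setting, and otherwise the cause was not tested. Rescaling moved the summed log2 ratio with sgBgal to -1.32 for H1, -1.58 for H2B and -1.87 for H4.

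Of 1059 fold changes of named members under the alternatives, 914 kept their direction and side of the threshold, 64 lost the call, 65 gained it and 16 changed sign, none of them called. Leaving out a line moved H4c1 between -0.22 and 0.085 with sgBgal, between -0.30 and 0.45 with sgPpia#3.2 and between -0.50 and 0.68 with sgPpia#4.1. With sgPpia#3.2, leaving out a line or the 4711-18 Control moved H2bc12 between -0.57 and 0.0080 and H1f2 between -0.36 and 0.12 (0.080 without replicate 1), and H2bc8 went to -0.29 with the block without that Control. H4c1 also went to -0.033 with sgPpia#3.2 and -0.059 with sgPpia#4.1 after rescaling, with or without the block. Without the 4711-18 Control it was at -0.16 with sgPpia#3.2, or -0.48 with the block. With sgPpia#4.1 it was at -0.054 with a pseudocount of 0.1, -0.24 with voom and -0.23 with voom and the block. The cause was not tested.

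Most canonical members had few reads: H3c8 had 0 to 100 per sample and H4c2 0 to 43, so small changes in them were not detectable at this depth. The lines are the replicates, and 3 of them limit each comparison.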
